A study of Mus musculus with 39 samples.

Results

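Transcripts of 10 genes of LIF and IL6 cytokine signaling were followed in WT and *Stat3* null epiblasts and epiblast stem cell (EpiSC) lines: the ligand *Lif*, the receptor subunits *Lifr*, *Il6st*, *Il6ra*, *Osmr* and *Cntfr*, and the Janus kinases *Jak1*, *Jak2*, *Jak3* and *Tyk2*. They were chosen by symbol, and each symbol was listed once in each count matrix, so that 10 of 47643 genes are described. The study asked how embryos lacking STAT3, the transcription factor that these receptors and kinases activate, develop after implantation. RNA was sequenced from 35 epiblasts, 1 per library, and from 4 EpiSC lines. The epiblasts came from crosses between heterozygous mice on the CD1 background: at embryonic day (E) 5.5 there were 4 null and 2 WT epiblasts. Day E6.5 had 8 null and 9 WT epiblasts, and on E7.5 there were 3 null ones and 9 that were WT. In the null allele, exons 20 to 22 of *Stat3* are replaced with a neomycin resistance gene. The EpiSCs were null lines 2 and 6 and WT lines 8 and 13, grown from E6.5 or E7.5 epiblasts on fibronectin in medium with Activin A, FGF2 and the tankyrase inhibitor XAV939. Extraembryonic ectoderm and visceral endoderm were removed by hand from the epiblasts, and each library is a bulk sample of one epiblast, so that fewer cells of a type and less RNA per cell cannot be told apart.

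Cytokines of this family bring together gp130, the shared signal-transducing subunit encoded by *Il6st*, and a second receptor chain. LIF pairs gp130 with the LIF receptor (*Lifr*), oncostatin M uses the oncostatin M receptor (*Osmr*), and the IL6 receptor (*Il6ra*) and the CNTF receptor (*Cntfr*) are ligand-binding subunits that hand their cytokine to gp130. JAK1, JAK2 and TYK2 sit on the receptor tails and phosphorylate STAT3, while JAK3 works with the common gamma chain of lymphoid cytokine receptors. In mouse embryonic stem cells this route from LIF to STAT3 sustains naive self-renewal.

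Total counts lay between 22941210 and 79013960 per epiblast library and between 63445877 and 127583699 per EpiSC library. *Stat3* was read first as a check of the labels: its read density, as the count divided by exon length and library size (RPKM), was 4.71 ± 0.928 (SD, n = 2) in WT and 1.78 ± 0.613 (n = 4) in null epiblasts at E5.5, 1.40 ± 0.754 (n = 9) and 0.458 ± 0.262 (n = 8) at E6.5, 1.43 ± 0.614 (n = 9) and 0.141 ± 0.0147 (n = 3) at E7.5, and 2.15 ± 0.339 (n = 2) and 0.349 ± 0.0261 (n = 2) in EpiSCs, the deletion leaving the other exons in place. At E6.5 the genotypes overlapped, with null epiblasts at 0.149 to 0.838 RPKM and WT at 0.59 to 3, and counts per gene do not resolve the deleted exons, so that single libraries of that stage are not checked by it. The *Stat3* difference was called at E7.5 and in EpiSCs but not at E5.5 (-1.41, edgeR, adjusted p = 0.999) or E6.5 (-1.60, adjusted p = 0.334). Some libraries stood apart. E5.5 null 1 had 0.673 CPM of *Pou5f1* and no count of *Nanog*, genes that define the epiblast, and 2750 CPM of extraembryonic ectoderm markers, so values at E5.5 are also given without it for *Cntfr*, *Tyk2*, *Jak1* and *Jak2*. Counts scaled to library size (CPM) of 14 visceral endoderm markers summed to between 45 and 12600 over the epiblasts, and at E6.5 they reached 7390 in null 3, 5140 in null 4, 4600 in null 8 and 6280 in WT 3, whereas the other 13 libraries of that stage lay at or under 1740. The 11 extraembryonic ectoderm markers summed to 1700 CPM in E6.5 null 1 and to at most 591 CPM in the other E6.5 libraries.

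The members lie on 8 chromosomes (GENCODE vM21, GRCm38). *Lif* spans chr11:4257557-4272514, *Lifr* chr15:7090614-7197489, *Il6st* chr13:112464070-112510086, *Il6ra* chr3:89864059-89913196, *Osmr* chr15:6813577-6874969 and *Cntfr* chr4:41657498-41697089. *Jak1* spans chr4:101152367-101265282, *Jak2* chr19:29251828-29313080, *Jak3* chr8:71676296-71690575 and *Tyk2* chr9:21104068-21131243. Exons are shared with another gene at *Jak3* (404 bases with *Insl3*, same strand), *Tyk2* (554 bases with the antisense gene *1700084C06Rik*), *Il6ra* (242 bases with the antisense *Gm42809*) and *Jak1* (4 bases with *Raver2*, opposite strand). The strand setting of the counting is not given in the sources used here, so reads of *Tyk2* or *Il6ra* and of their antisense partners may not be separated. *Insl3* was listed at 0 in all 35 epiblasts and at 0.224 to 0.402 RPKM in the EpiSCs.

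Promoters are shown for *Jak2*, *Il6st* and *Jak1*, which were called between WT stages and have a single window each, as RefSeq windows of GRCm38.p6 from 250 bases before to 50 bases after a transcription start, 5′ to 3′ on the gene's strand. Capitals mark the GC box GGGCGG, or CCGCCC where it lies on the other strand. The *Jak2* window is chr19:29251553-29251852 (plus strand), the *Il6st* window chr13:112463820-112464119 (plus strand) and the *Jak1* window chr4:101265174-101265473 (minus strand).
Jak2: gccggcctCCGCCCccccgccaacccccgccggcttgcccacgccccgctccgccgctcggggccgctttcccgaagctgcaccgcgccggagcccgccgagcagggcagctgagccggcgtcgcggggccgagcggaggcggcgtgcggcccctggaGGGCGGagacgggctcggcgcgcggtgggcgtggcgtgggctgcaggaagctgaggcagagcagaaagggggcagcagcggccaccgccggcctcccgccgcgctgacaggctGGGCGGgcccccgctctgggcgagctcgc
Il6st: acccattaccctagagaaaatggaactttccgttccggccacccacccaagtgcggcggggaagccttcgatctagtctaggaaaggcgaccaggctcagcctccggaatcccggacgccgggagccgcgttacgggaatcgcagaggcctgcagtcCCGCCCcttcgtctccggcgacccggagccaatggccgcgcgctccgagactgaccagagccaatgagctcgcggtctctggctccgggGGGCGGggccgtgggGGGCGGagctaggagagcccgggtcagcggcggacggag
Jak1: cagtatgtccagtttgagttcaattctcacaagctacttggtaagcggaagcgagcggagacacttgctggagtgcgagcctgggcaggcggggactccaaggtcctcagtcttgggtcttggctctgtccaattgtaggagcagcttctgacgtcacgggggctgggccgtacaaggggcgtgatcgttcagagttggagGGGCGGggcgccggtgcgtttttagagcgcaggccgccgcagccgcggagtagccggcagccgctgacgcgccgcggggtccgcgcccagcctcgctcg
*Jak2* and *Il6st* held 3 GC boxes each and *Jak1* held 1. All 10 members matched the RefSeq table, with 16 windows, because *Cntfr* has 6 and *Lifr* 2. A GC box was found in 11 of the 16 windows, belonging to 8 members, and in 35.7% of all 32851 windows. The *Jak2* window held 44 CpG dinucleotides, the *Il6st* window 33 and the *Jak1* window 29, where the median over all windows was 7. The spaced palindrome TTCNNNGAA, the general form of a STAT site, was searched on both strands and was in none of the members' 16 windows and in 8.30% of all windows. The letters TATAAA were likewise in none of them and in 13.6% of all windows.

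*Jak1* was the leading kinase transcript of the epiblast. In RPKM, which compares levels between genes per length of exon, *Jak1* was at 13.9 and 9.81 in the 2 WT epiblasts of E5.5, at 3.86 to 7.36 (median 4.96) in the 9 of E6.5 and at 4.5 to 9.95 (median 7.49) in the 9 of E7.5. It made up 63.7% ± 6.64 (SD, n = 2) of the summed RPKM of the 4 JAK genes in WT at E5.5, 69.8% ± 7.21 (n = 9) at E6.5 and 64.7% ± 3.95 (n = 9) at E7.5. *Tyk2*, the kinase first known from interferon signaling, was at 1.84 ± 0.599 RPKM (n = 2), 1.47 ± 0.492 (n = 9) and 2.06 ± 0.629 (n = 9) at the 3 WT stages. *Jak3* was barely read in the epiblast, at a mean of at most 0.907 RPKM in any group, and had no count in 10 of 35 libraries. *Jak2* took 21.8% ± 10.7 (n = 2) of the JAK sum in WT at E5.5, 8.41% ± 3.74 (n = 9) at E6.5 and 16.6% ± 3.17 (n = 9) at E7.5.

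**Figure D1:**
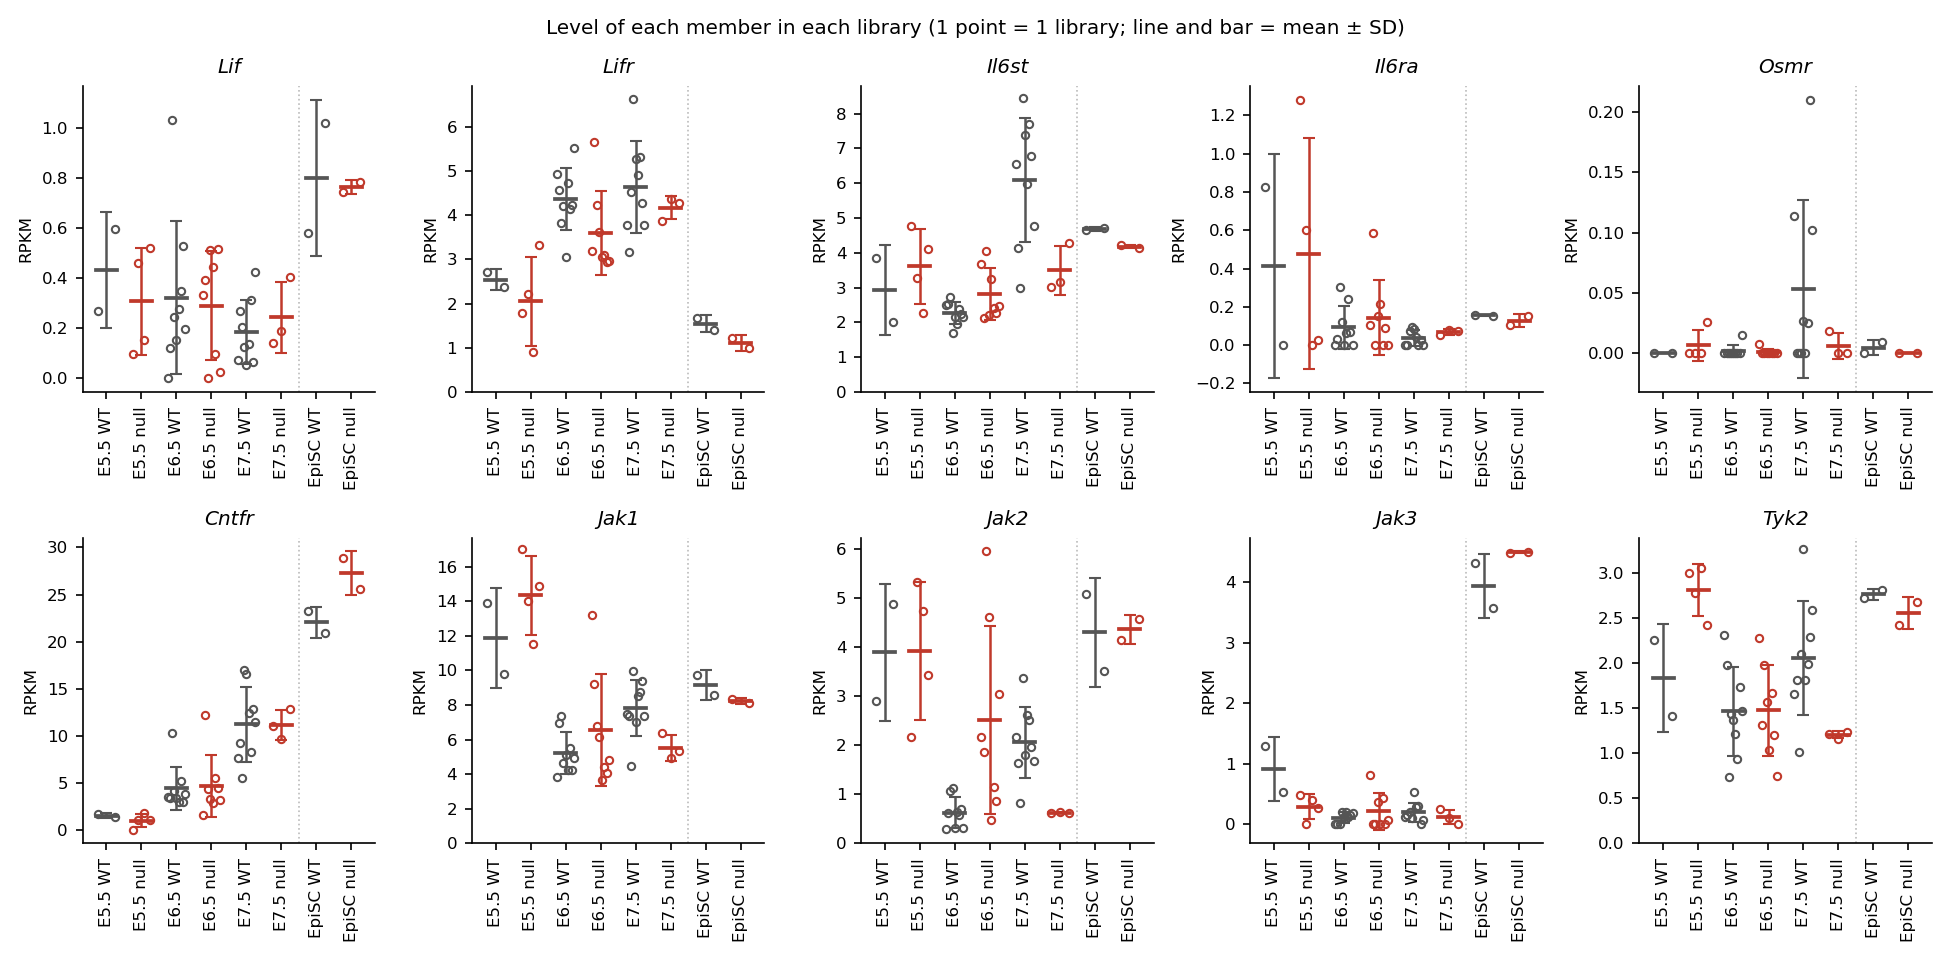
RPKM (vertical axes, linear) of each of the 10 members in every library, by group. Each open point is 1 library, the horizontal line the mean and the bar the SD, in grey for WT and red for *Stat3* null. Epiblasts and EpiSCs, right of the dotted line, were prepared with different kits and normalized apart. *Jak2* lay at 0.297 to 1.13 in the 9 WT epiblasts of E6.5 and at 0.613 to 0.637 in the 3 null epiblasts of E7.5, and *Il6st* was highest in the WT epiblasts of E7.5.

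Of the receptor subunits, *Lifr*, *Il6st* and *Cntfr* were read in every epiblast. In WT, *Il6st*, the gp130 gene, was at 3.85 and 2.01 RPKM at E5.5, at 1.68 to 2.73 (median 2.24) at E6.5 and at 3 to 8.45 (median 6.54) at E7.5. *Lifr* was at 2.72 and 2.37 RPKM at E5.5, at 3.06 to 5.53 (median 4.24) at E6.5 and at 3.17 to 6.64 (median 4.52) at E7.5. *Cntfr* was at 1.68 and 1.30 RPKM at E5.5, at 2.95 to 10.3 (median 3.52) at E6.5 and at 5.5 to 17 (median 11.4) at E7.5. *Cntfr* took 20.7% ± 3.15 (SD, n = 2) of the summed receptor RPKM in WT at E5.5, 38.0% ± 9.46 (n = 9) at E6.5 and 50.1% ± 7.07 (n = 9) at E7.5. *Il6st* took 38.9% ± 4.98, 20.8% ± 3.31 and 27.7% ± 5.01 at the same stages. *Il6ra* and *Osmr* were close to absent: *Il6ra* averaged at most 0.478 RPKM in any epiblast group and had no count in 12 of 35 epiblasts, and *Osmr* had no count in 26 of 35 and reached 0.210 RPKM in a single E7.5 WT epiblast. *Lif*, the ligand, was read at a low level, with group means from 0.184 to 0.431 RPKM and no count in 2 of 35 epiblasts. In the library with the fewest counts, a count of 0 allows a level of up to 0.131 CPM, and this limit covers counting error only.

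**Figure D2:**
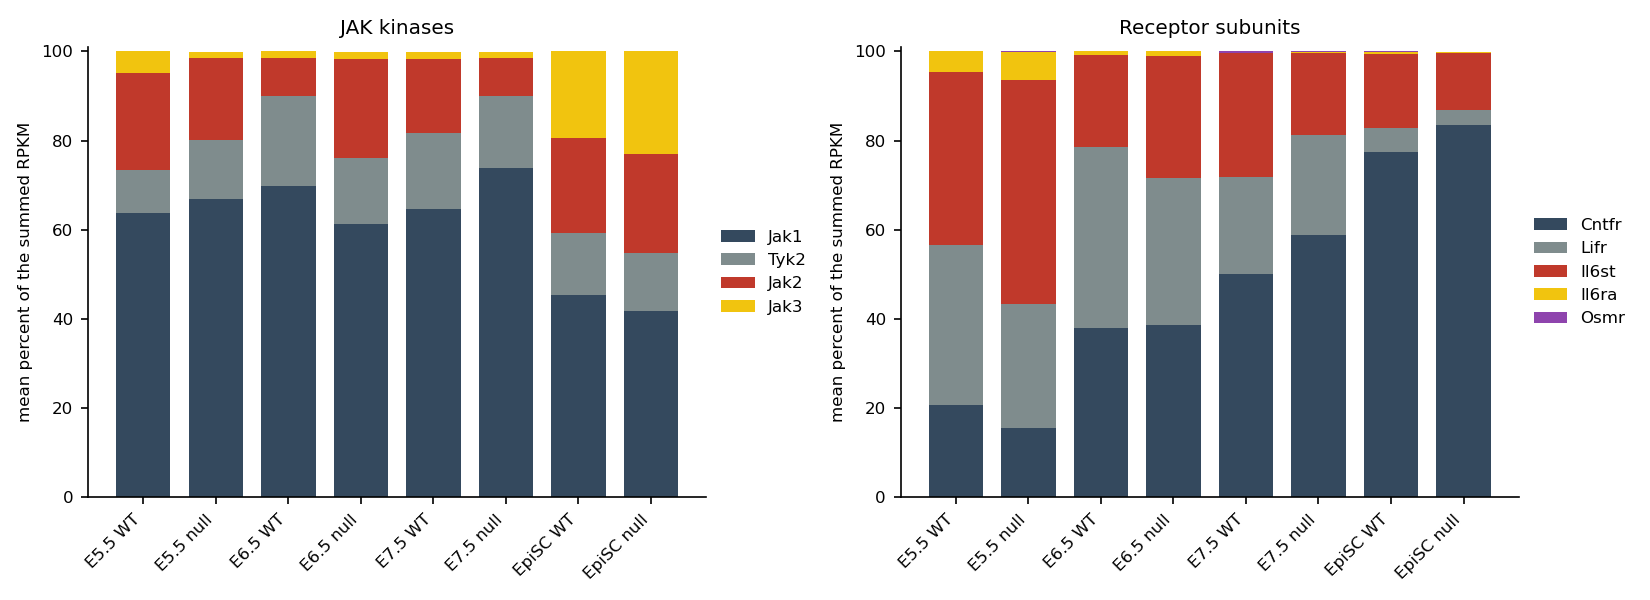
Mean percent of the summed RPKM (vertical axes, from 0 to 100) taken by each JAK gene, left, and by each receptor subunit gene, right, in the 8 groups of libraries. The *Jak2* share was 8.41% in WT epiblasts of E6.5 and in null epiblasts of E7.5, and 22.1% in null epiblasts of E6.5. *Cntfr* took the most of the receptor sum in both E7.5 groups and in the EpiSCs.

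Ranked by mean RPKM, the WT order at E5.5 was *Jak1*, *Jak2*, *Il6st*, *Lifr*, *Tyk2*, *Cntfr*, *Jak3*, *Lif*, *Il6ra* and *Osmr*. At E6.5 it was *Jak1*, *Cntfr*, *Lifr*, *Il6st*, *Tyk2*, *Jak2*, *Lif*, *Jak3*, *Il6ra* and *Osmr*. At E7.5 *Cntfr* came first, followed by *Jak1*, *Il6st*, *Lifr*, *Jak2*, *Tyk2*, *Jak3*, *Lif*, *Osmr* and *Il6ra*. Most neighbours in these orders overlapped in range, and the pairs that did not were *Jak1* over *Jak2*, *Lifr* over *Tyk2* and *Cntfr* over *Jak3* at E5.5, *Lifr* over *Il6st* at E6.5 and *Tyk2* over *Jak3* at E7.5. *Jak2* thus moved from the second rank at E5.5 to the sixth at E6.5 in WT.

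Between E5.5 and E6.5 in WT epiblasts, the kinases *Jak2* and *Jak1* fell. *Jak2*, the kinase that many cytokine and hormone receptors share, was at 2.91 and 4.88 RPKM at E5.5 and at 0.297 to 1.13 (median 0.624) at E6.5. The groups did not overlap, and the log2 fold change was -2.61 (SE 0.44, edgeR quasi-likelihood test, adjusted p = 0.00381). *Jak1* fell by 1.17 on the log2 scale (SE 0.21, edgeR, adjusted p = 0.00505), again without overlap. *Lifr* was higher at E6.5 by 0.80 (SE 0.19, edgeR, adjusted p = 0.0209), which passed the p but not the fold asked of a call, an absolute log2 fold change over 1 with adjusted p under 0.05. *Cntfr* differed by 1.58 (SE 0.48, edgeR, adjusted p = 0.0532), *Il6st* by -0.35 (SE 0.22, adjusted p = 0.372) and *Tyk2* by -0.30 (SE 0.37, adjusted p = 0.703), none of them called by edgeR. DESeq2 called *Cntfr* (1.52, adjusted p = 0.0121) as well as *Jak2* and *Jak1*. Of the 9 members tested (*Osmr* was below the filter on low counts), 2 were called, both lower, where 5.15% of 20763 genes were called in either direction and 2.63% as lower. The members' median log2 difference was -0.41, beside 0.10 over all genes tested. The E5.5 side rests on 2 libraries: without WT 1 of E5.5 the *Jak1* difference was -0.94 (edgeR, adjusted p = 0.173), while *Jak2* was at -2.99 (adjusted p = 0.0425). Visceral endoderm markers were also lower in value, with 7720 and 6390 CPM in the WT epiblasts of E5.5 and 92.6 to 6280 (median 210) at E6.5, where 13 of 14 markers had a lower value and 0 of 14 were called. The 11 extraembryonic ectoderm markers summed to 1110 and 454 CPM at E5.5 and to 124 to 458 CPM at E6.5, with 10 of 10 tested lower in value, 3 of them called, and *Tpbpa* at 0 throughout. The 8 epiblast markers summed to 2650 and 4000 CPM at E5.5 and to 4600 to 7680 CPM at E6.5, with 2 called higher. Over the 34 epiblasts other than E5.5 null 1, *Jak1* had r = 0.605 with the logarithm of the extraembryonic ectoderm sum and 0.543 with that of the visceral endoderm. For *Jak2* these were 0.362 and 0.797. The part of these markers in the kinase differences was not tested. E6.5 WT 3 had the most visceral endoderm markers of the E6.5 WT libraries. Its extraembryonic ectoderm markers were at 263 CPM, within the range of the others. Without E6.5 WT 3, *Jak2* differed by -2.79 (edgeR, adjusted p = 0.000575), *Jak1* by -1.29 (adjusted p = 0.000394) and *Cntfr* by 1.27 (adjusted p = 0.0102, which is a call). E6.5 WT 3 was the highest E6.5 WT library in *Jak1* and *Cntfr* and the second highest in *Jak2*. Its removal therefore shifts these differences by construction.

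Between E6.5 and E7.5 in WT, *Il6st*, *Cntfr* and *Jak2* rose. *Il6st* did not overlap between the stages and rose by 1.41 on the log2 scale (SE 0.16, edgeR, adjusted p = 7.34e-06). *Jak2* rose by 1.69 (SE 0.30, adjusted p = 0.000327) and ranged from 0.823 to 3.38 RPKM (median 1.96) at E7.5, the lowest of these libraries overlapping E6.5. *Cntfr* rose by 1.33 (SE 0.25, edgeR, adjusted p = 0.000664), its highest library of E6.5, WT 3 at 10.3 RPKM, reaching into the E7.5 range. *Jak1* was higher by 0.57 (SE 0.14, edgeR, adjusted p = 0.00561) and so stayed under the fold of a call, and *Tyk2* differed by 0.47 (SE 0.22, adjusted p = 0.118). *Lifr* differed by 0.07 (95% interval -0.19 to 0.34, edgeR, adjusted p = 0.739), an interval within which lies no change as large as that of *Il6st*. Of 9 members tested, 3 were called, all higher, beside 8.83% of 17191 genes in either direction and 5.74% as higher. The members' median log2 difference was 0.57, against 0.01 over all genes tested. The E6.5 libraries served in both stage comparisons, so that the values before and after E6.5 are not independent. Without E6.5 WT 3 and E7.5 WT 3, *Il6st* rose by 1.54, *Jak2* by 1.93 and *Cntfr* by 1.69, all 3 called by edgeR at adjusted p from 2.96e-07 to 1.44e-05. E7.5 WT 3 was the lowest E7.5 WT library in all 3 genes. E6.5 WT 3 was the highest E6.5 WT library in *Il6st* and *Cntfr* and the second highest in *Jak2*. Leaving both out therefore widens the rises by construction and is no separate test. Visceral endoderm markers were at 490 to 4690 CPM (median 1850) in WT at E7.5, with 4 of 14 called higher, and 7 markers of blood and endothelial progenitors were at 5.61 to 135 CPM (median 80.7) against 3.39 to 6.34 (median 4.20) at E6.5. The blood markers *Hbb-bh1* and *Hba-x* were at 0 in every library. The 8 epiblast markers summed to 4600 to 7680 CPM (median 6190) in WT at E6.5 and to 1120 to 6120 CPM (median 1940) at E7.5, with 6 called lower, and over the 34 epiblasts *Il6st* had r = -0.835 and *Jak2* r = -0.647 with this list. With the visceral endoderm list *Jak2* had r = 0.797 and *Il6st* 0.309. The part of these lists in the differences was not tested.

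**Figure D3:**
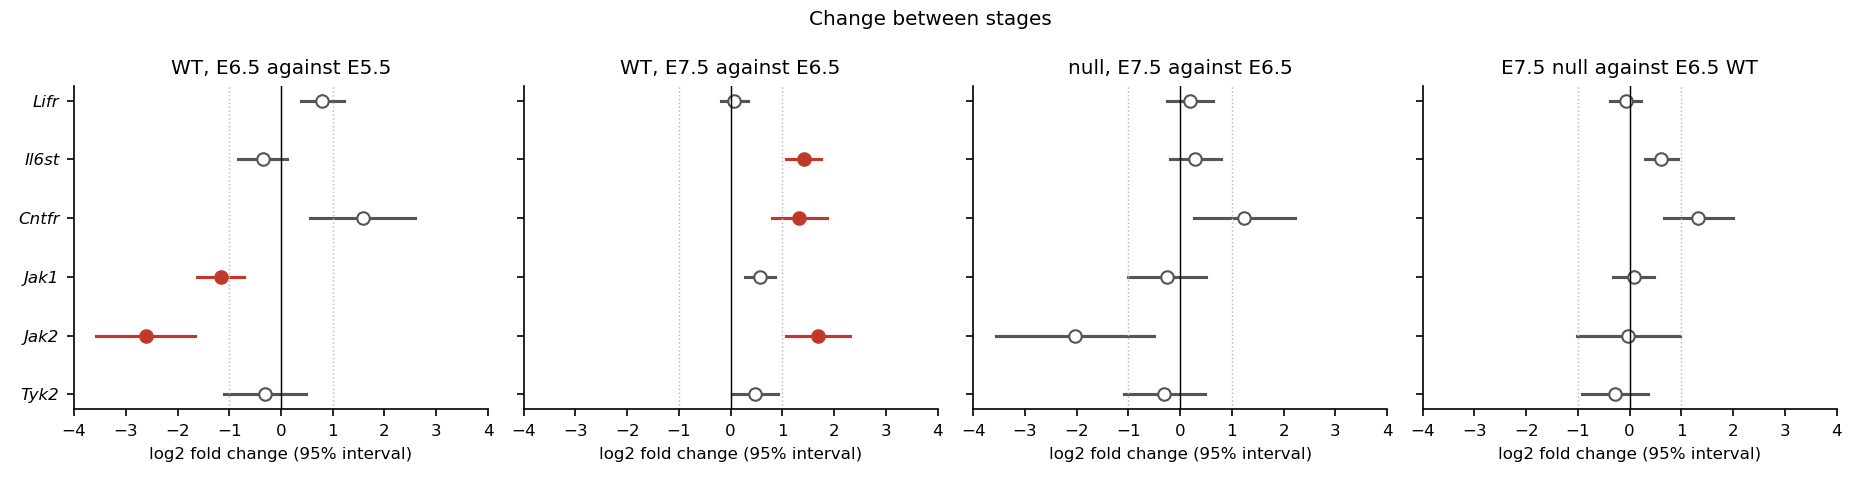
Log2 fold changes (horizontal axes) of the 6 members read in every epiblast, with 95% intervals, for WT from E5.5 to E6.5, WT from E6.5 to E7.5, null from E6.5 to E7.5, and E7.5 null against E6.5 WT. Filled red points passed the call and dotted lines mark a log2 fold change of 1 in either direction. *Jak2* lay at -2.61 in the first panel, at 1.69 in the second and at -0.03 in the last.

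In *Stat3* null epiblasts the same step from E6.5 to E7.5 gave no call among 9 members tested. *Jak2* was at 0.484 to 5.95 RPKM (median 2.01) in the 8 null epiblasts of E6.5 and at 0.613, 0.637 and 0.622 at E7.5, a log2 difference of -2.03 (SE 0.71, edgeR, adjusted p = 0.418). *Cntfr* was at 1.54 to 12.2 RPKM (median 3.81) and then at 11, 9.6 and 12.8, a difference of 1.24 (SE 0.45, adjusted p = 0.448). *Il6st* differed by 0.30 (95% interval -0.20 to 0.79, edgeR, adjusted p = 0.906). Across all genes 0.103% of 19460 were called, and 1582 genes had an unadjusted p under 0.05, 2 members (*Jak2* and *Cntfr*) among them.

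The genotypes were compared at each stage in turn. At E5.5 no member was called, and neither was any other gene (0% of 18690; 467 genes, but no member, reached an unadjusted p under 0.05, and by DESeq2 14 genes were called). *Tyk2* was at 3, 2.78, 3.06 and 2.42 RPKM in the 4 null epiblasts and at 2.26 and 1.41 in the 2 WT epiblasts, so that the groups did not overlap. Its log2 difference was 0.61 (SE 0.30, edgeR, adjusted p = 0.999), and the two-sided exact permutation test gave p = 0.0667, the smallest that 4 against 2 libraries allow. *Jak1* was at 17, 14, 11.5 and 14.9 RPKM in null against 13.9 and 9.81 in WT, a difference of 0.26 (SE 0.22). *Jak3* was at 0.471, 0, 0.395 and 0.263 RPKM in null against 1.29 and 0.529 in WT, without overlap, and was not called. *Jak2* was at 2.17, 5.33, 4.73 and 3.43 RPKM in null against 2.91 and 4.88 in WT, so the WT values lay inside the null range. Without null 1, at 2.17, the null range was 3.43 to 5.33 and the WT epiblast at 2.91 lay below it. *Cntfr* was at 0.0201 RPKM in E5.5 null 1, the library without *Nanog*, and at 1.05, 1.77 and 0.984 in the other null epiblasts, against 1.68 and 1.30 in WT. Its difference of -0.65 (SE 1.23) became -0.24 without that library, that of *Tyk2* 0.58 and that of *Jak1* 0.17, all 3 at adjusted p = 1 by edgeR.

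At E6.5 *Jak2* had the largest log2 difference of the 9 members tested. It was at 2.16, 1.86, 5.95, 4.61, 0.484, 1.14, 0.866 and 3.05 RPKM in null epiblasts 1 to 8, and at 0.297 to 1.13 in the 9 WT epiblasts. Of the 8 null epiblasts, 6 lay above every WT epiblast and the others inside the WT range. The log2 difference was 2.01 (SE 0.45, 95% interval 1.07 to 2.95), with an unadjusted p of 0.000249 but an adjusted p of 0.333 by edgeR, under which no gene was called (0% of 17095; 1414 genes, among them *Jak2* and *Il6st*, had an unadjusted p under 0.05). With DESeq2 there were 15 called genes, *Jak2* among them (adjusted p = 0.00695). The two-sided exact permutation test on mean log2 CPM, 1 of 30 such tests over the members and stages, gave a difference of 1.72 and p = 0.003, unadjusted. *Il6st* differed by 0.33 (SE 0.15, edgeR, adjusted p = 0.594), *Lifr* by -0.27 (SE 0.14, adjusted p = 0.682) and *Jak1* by 0.34 (SE 0.23, adjusted p = 0.786). The 9 members tested had a median of 0.33, against -0.01 over all genes tested.

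The null epiblasts of E6.5 with the highest *Jak2* were those with the most visceral endoderm transcripts. Null 3, 4 and 8, at 5.95, 4.61 and 3.05 RPKM of *Jak2*, had 7390, 5140 and 4600 CPM of the 14 markers, and the other 5 null epiblasts had 164 to 1260 CPM. All 14 markers had a higher value in null than in WT at E6.5 (0 called), and *Trf* and *Foxa1* were the markers listed at 0 in some null library. WT 3 had 6280 CPM of the markers and 1.06 RPKM of *Jak2*, the second highest of WT. With null 1, 3, 4 and 8 and WT 3 left out, the libraries highest in visceral endoderm or extraembryonic ectoderm markers, the *Jak2* difference was 0.92 (SE 0.45, edgeR, adjusted p = 0.791), under a log2 difference of 1. Each null epiblast left out was higher in *Jak2* than every null epiblast kept. Their removal thus narrows the difference by construction and is no separate test. The E6.5 libraries also fell into 2 depth groups. Those over 40000000 counts had 15171 to 19380 genes with a count, and the others had 20338 to 22310. Null 3, the highest in *Jak2*, had the fewest genes with a count (15171), followed by null 2 (15531). Among the 5 null and 6 WT epiblasts under 40000000 counts the difference in mean log2 CPM was 1.38 for *Jak2* (exact permutation test, p = 0.0519), -0.44 for *Lifr* (p = 0.0173), 0.26 for *Il6st* (p = 0.0303) and -0.06 for *Jak1* (p = 0.639). Among the 3 null and 3 WT epiblasts over 40000000 counts it was 2.28 for *Jak2* (p = 0.1, the smallest possible in the exact test), -0.06 for *Lifr* (p = 0.9), 0.29 for *Il6st* (p = 0.4) and 0.69 for *Jak1* (p = 0.3). The part of the markers, of depth or of the number of genes with a count in the *Jak2* difference was not tested.

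At E7.5 *Jak2* was the single member called between genotypes, and it was lower in null. The 3 null epiblasts held 0.613, 0.637 and 0.622 RPKM, below all 9 WT epiblasts (0.823 to 3.38, median 1.96). The log2 difference was -1.70 (SE 0.34, edgeR, adjusted p = 0.0324), and the exact permutation test gave p = 0.00455, the smallest that 3 against 9 libraries allow. Among all genes 1.17% of 19680 were called, and 1.09% as lower in null. The call was near its threshold: it was lost without any of the 3 null epiblasts (edgeR, adjusted p from 0.101 to 0.154) and without WT 1, 5, 6, 7 or 8 in turn (0.0518 to 0.0589), whereas without WT 3, the WT library closest to null in *Jak2*, the adjusted p was 0.000379. The difference stayed between -1.80 and -1.58 in all these fits.

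*Il6st*, *Tyk2* and *Jak1* had negative differences at E7.5 and were not called. *Il6st* was at 3.01, 3.17 and 4.29 RPKM in null, inside the WT range of 3 to 8.45, and differed by -0.77 (SE 0.26, edgeR, adjusted p = 0.12). *Tyk2* was at 1.22, 1.16 and 1.24 RPKM against 1.02 to 3.27 and differed by -0.74 (SE 0.27, adjusted p = 0.136). *Jak1* was at 6.38, 4.93 and 5.32 RPKM against 4.5 to 9.95 and differed by -0.47 (SE 0.18, adjusted p = 0.156). The exact permutation test gave unadjusted p = 0.0409 for *Il6st*, 0.0318 for *Tyk2* and 0.05 for *Jak1*. For these 3 genes WT 3, which also had the most epiblast marker RNA of the E7.5 WT libraries (6120 CPM for 8 markers, against 1120 to 3050), was the one WT epiblast below the lowest null value. Without it their adjusted p values by edgeR were 0.00757, 0.0182 and 0.00764 in the order named. The log2 differences of -0.86, -0.83 and -0.54 remained under the fold of a call. WT 3 is singled out by these same values, so leaving it out widens the differences by construction and is no separate test. That fit called 1105 genes, against 231 with all libraries, so the shift was not limited to these 3 genes. With all libraries 3874 of 19680 genes had an unadjusted p under 0.05 by edgeR, 4 members among them. *Cntfr* gave a difference of 0.02 (95% interval -0.56 to 0.60), at 11, 9.6 and 12.8 RPKM in null and 5.5 to 17 in WT. *Lifr* was at 3.87, 4.37 and 4.28 RPKM in null, within the WT range of 3.17 to 6.64. The 10 members had a median log2 difference of -0.605, against -0.02 over all genes tested.

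**Figure D4:**
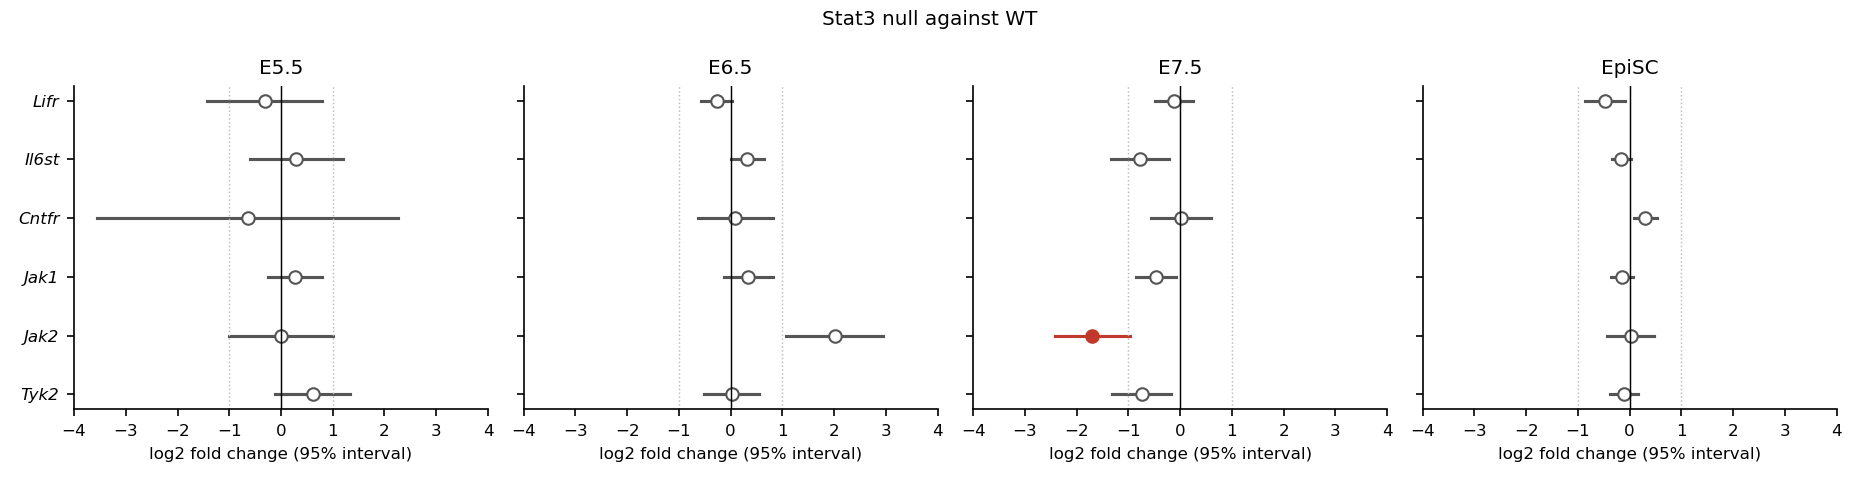
Log2 fold changes of *Stat3* null against WT (horizontal axes) with 95% intervals for 6 members in EpiSCs and at each epiblast stage. Filled red points passed the call and dotted lines mark a log2 fold change of 1 in either direction. *Jak2* lay at 2.01 at E6.5, which was not called, and at -1.70 at E7.5, the single call.

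Visceral endoderm transcripts differed between the genotypes at E7.5 as well. The 14 markers summed to 201, 79.8 and 378 CPM in the 3 null epiblasts and to 490 to 4690 CPM in WT, without overlap. All 14 had a lower value in null and 3 were called, and *Hnf4a* was at 0 in 1 null epiblast. The 8 epiblast markers summed to 5890, 6130 and 4430 CPM in null and to 1120 to 6120 CPM (median 1940) in WT, with all 8 higher in value in null and 0 called. Over the 34 epiblasts *Jak1* had r = -0.665, *Jak2* -0.647 and *Tyk2* -0.605 with this list. The extraembryonic ectoderm markers summed to 355, 436 and 446 CPM in null and to 98 to 353 CPM in WT, without overlap, although 7 of the 9 tested had a lower value in null and 1 was called lower. The blood and endothelial progenitor markers summed to 8.04, 14.5 and 44.8 CPM in null and to 5.61 to 135 CPM (median 80.7) in WT, with 0 called. The part of these 3 lists in the differences of the members was not tested. Over 34 epiblasts, leaving out E5.5 null 1, the correlation of *Jak2* with the logarithm of the visceral endoderm sum was 0.797 and that of *Il6st* 0.309, and the libraries share stage and genotype. In the EpiSCs the visceral endoderm markers summed to 10.6 to 18.6 CPM, with *Ttr* at 0 in all 4 lines and *Hnf4a* in 3, and *Jak2* was at 3.52 to 5.09 RPKM. In E5.5 null 1, with 45 CPM of these markers and 9 of them at 0, *Jak2* was at 2.17 RPKM. That library had no count of *Nanog* and 2750 CPM of extraembryonic ectoderm markers. The EpiSCs are cultured lines made with another kit and normalized apart. Both are therefore given as a description only, and the source of their *Jak2* was not tested. Because no E7.5 null epiblast reached the marker level of any E7.5 WT epiblast, the genotype and the markers cannot be told apart at that stage.

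**Figure D5:**
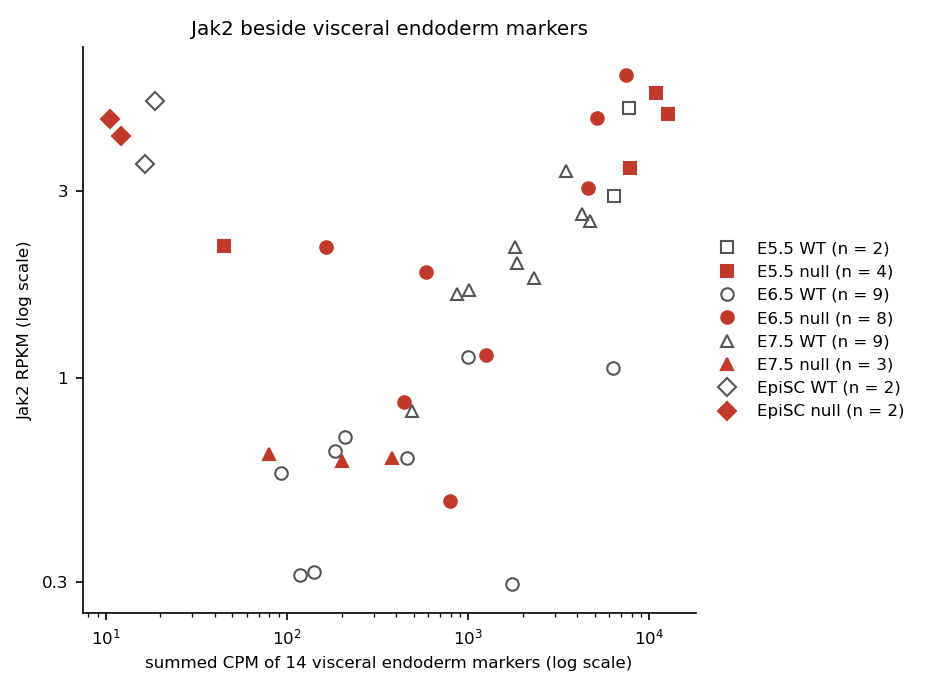
*Jak2* RPKM (vertical axis, log scale) against the summed CPM of 14 visceral endoderm markers (horizontal axis, log scale), 1 point per library. Symbols give the stage, open grey points WT and filled red points *Stat3* null. Null 3, 4 and 8 of E6.5 lie at 4600 to 7390 CPM with 3.05 to 5.95 RPKM of *Jak2*, and the 4 EpiSC lines lie at 10.6 to 18.6 CPM with 3.52 to 5.09 RPKM.

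The genotype difference of *Jak2* differed between the stages. In one fit of the 29 epiblasts of E6.5 and E7.5, the interaction of genotype with stage was -3.72 on the log2 scale (SE 0.72, 95% interval -5.20 to -2.25, edgeR, adjusted p = 0.0199). *Jak2* was the one member called of 10 tested, beside 0.443% of 22122 genes in either direction and 0.258% as lower. The call was lost without each of the 3 E7.5 null epiblasts (edgeR, adjusted p from 0.0624 to 0.16, differences from -3.74 to -3.71). It was kept, at -2.62 (adjusted p = 0.0282), without E6.5 null 1, 3, 4 and 8 and WT 3, a fit that leaves the E7.5 libraries unchanged. The interaction was also negative in value for all 14 visceral endoderm markers (median -4.86). So it was for 9 of 10 extraembryonic ectoderm markers tested (median -4.09). It was positive for all 8 epiblast markers (median 1.61), and no marker of these lists was called. The part of these markers in the *Jak2* interaction was not tested. Among the members *Il6st* followed at -1.12 (SE 0.29, edgeR, adjusted p = 0.0623), which DESeq2 called (-1.15, adjusted p = 0.00748) and which edgeR called without E6.5 WT 3 and E7.5 WT 3 (-1.25, adjusted p = 0.00332). In *Il6st*, E6.5 WT 3 was the highest WT library of its stage and E7.5 WT 3 the lowest. Leaving both out thus widens the value by construction. *Jak1* gave -0.83 (SE 0.34, edgeR, adjusted p = 0.246), *Tyk2* -0.78 (SE 0.40, adjusted p = 0.387) and *Cntfr* -0.09 (SE 0.51, adjusted p = 0.991).

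The study compares E7.5 null epiblasts with WT epiblasts a day younger. *Jak2* was at 0.613 to 0.637 RPKM in E7.5 null and at 0.297 to 1.13 in E6.5 WT, so that the null values lay inside the WT range (difference -0.03, 95% interval -1.01 to 0.96). *Il6st* did not overlap, at 3.01 to 4.29 RPKM against 1.68 to 2.73, and was higher in E7.5 null by 0.61 (SE 0.15, edgeR, adjusted p = 0.131). *Cntfr* was at 9.6 to 12.8 RPKM against 2.95 to 10.3 and was higher by 1.33 (SE 0.31, adjusted p = 0.106). Leaving out E6.5 WT 3, the WT epiblast at 10.3, made *Cntfr* a call (1.59, edgeR, adjusted p = 0.00173). As it was the highest E6.5 WT library in *Cntfr*, its removal widens the difference by construction. No member of 9 was called in the fit of all libraries, where 0.162% of 19749 genes were; 1752 genes had an unadjusted p under 0.05 and DESeq2 called 217, *Cntfr* among them. These values share the E7.5 null epiblasts with the comparison against E7.5 WT and are set beside it, not counted as further support.

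In the EpiSC lines every member except *Osmr* had counts in all 4 lines. *Cntfr* led, at 23.2 and 20.9 RPKM in WT lines 8 and 13 and at 28.9 and 25.6 in null lines 2 and 6. *Jak3* was at 4.32 and 3.57 RPKM in WT and at 4.49 and 4.51 in null lines, where no epiblast exceeded 1.29. It took 19.5% ± 0.269 (SD, n = 2) of the JAK sum in WT lines and 22.9% ± 0.254 (n = 2) in null lines, beside at most 4.74% as the mean of an epiblast group. *Lifr* was at 1.68 and 1.41 RPKM in WT and at 1.23 and 0.986 in null lines. The library kits differed between epiblasts and EpiSCs, so these levels are set side by side without a test.

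Between null and WT EpiSCs no member was called of 9 tested, where 0.106% of 20736 genes were; 1885 genes had an unadjusted p under 0.05, *Lifr* and *Cntfr* among them, and DESeq2 called 203 genes. *Lifr* differed by -0.48 (SE 0.16, edgeR, adjusted p = 0.428) and *Cntfr* by 0.31 (SE 0.09, adjusted p = 0.376). The lines of the genotypes overlapped in *Lif* and *Jak2* and not in the other members tested. The share of all genes without overlap was not computed, so with 2 lines against 2 this is not read as a difference. *Il6st* differed by -0.16 (95% interval -0.35 to 0.02), *Jak1* by -0.15 (-0.37 to 0.06) and *Jak3* by 0.19 (-0.10 to 0.48). *Jak2* differed by 0.02 (-0.44 to 0.47) and *Tyk2* by -0.11 (-0.38 to 0.16), so that for each of these 5 genes the interval held no change of 1 on the log2 scale. Each genotype had 2 lines, and the values of 2 lines limit what these tests could detect.

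Genes whose log2 CPM ran most like each member were read off over the 34 epiblasts among 15108 genes, as a description, since the libraries share stage, genotype and tissue makeup. *Jak2* ran closest to *Rdx* (r = 0.903), *Eea1* (0.878) and *Polg* (0.875). *Il6st* ran closest to *Cdx1* (r = 0.883), *Grsf1* (0.880) and *Tpm4* (0.873), and *Cntfr* to *Ccnd2* (0.894), *Sall4* (0.887) and *Gli3* (0.882). *Jak1* ran closest to *E130012A19Rik* (r = 0.895), *Zbtb10* (0.890) and *Elf4* (0.890). The nearest for *Lifr* were *Kdm7a* (r = 0.810), *Fam162a* (0.809) and *Adamts17* (0.809), and for *Tyk2* they were *Ap2b1* (0.734), *Gm1673* (0.707) and *Limch1* (0.705). The low members had weaker partners: *Lif* with *Emc3*, *Polr2h* and *Ints12* (0.707 to 0.708), *Jak3* with *Gm43682*, *Tspyl3* and *Atg4a* (0.631 to 0.682), and *Il6ra* with *Gatad2a*, *Prdx3* and *Nr2c2ap* (0.574 to 0.582). Among the members themselves *Jak1* and *Jak2* were most alike (r = 0.721), followed by *Lifr* and *Cntfr* (0.595) and by *Jak1* and *Tyk2* (0.572). With the markers, *Il6st* had r = 0.847 with the blood and endothelial progenitor list, and *Cntfr* had 0.826 with the neuroectoderm list.

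Other genes of the pathway were taken from 3 lists. Of 14 other ligands and receptors of the IL6 family, at most 10 were tested in a comparison. *Cntf* (ciliary neurotrophic factor, a ligand of CNTFR) rose in WT from E6.5 to E7.5 (2.86, SE 1.03, edgeR, adjusted p = 0.0462), and no gene of this list was called in any comparison other than that one. *Ctf1*, the cardiotrophin 1 gene, was at 0.857 ± 0.678 RPKM (SD) over the 20 WT epiblasts. Of 15 other receptors that use JAKs, at most 12 were tested. *Il13ra1* (2.33, SE 0.77, edgeR, adjusted p = 0.0315) and *Il10rb* (1.59, SE 0.54, adjusted p = 0.0338), subunits of the IL13 and IL10 receptors, rose in WT from E6.5 to E7.5, and none was called elsewhere. *Ifnar1* and *Ifngr1*, the interferon receptor chains, led this list at 7.67 ± 1.51 and 2.56 ± 0.815 RPKM (n = 20). All 20 STATs, adaptors and inhibitors on the third list were tested everywhere, with *Ptpn11* (20.2 ± 1.61 RPKM) and *Grb2* (18.3 ± 3.91 RPKM) the most abundant over WT epiblasts. *Socs2*, an inhibitor induced by growth hormone signaling, rose in WT from E5.5 to E6.5 (1.75, SE 0.36, edgeR, adjusted p = 0.0106), fell from E6.5 to E7.5 (-1.30, SE 0.22, adjusted p = 0.000266) and was higher in null at E7.5 (1.38, SE 0.30, adjusted p = 0.0405). *Gab1*, the gene of an adaptor that binds SHP2, was lower in null at E7.5 (-1.35, SE 0.27, edgeR, adjusted p = 0.033). *Stat3* itself was also called lower in E7.5 null than in E6.5 WT (-3.32, SE 0.50, edgeR, adjusted p = 0.0119), and it fell in WT from E5.5 to E6.5 (-1.74, SE 0.42, edgeR, adjusted p = 0.0198).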

How the data were processed

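Whole-number counts per gene, not normalized, were deposited for 35 epiblast and 4 EpiSC libraries. The authors trimmed reads with Trim Galore, aligned them to GRCm38 with HISAT2 and counted them with StringTie, and the annotation version and strand setting of the counting are not given in the sources used here. Epiblast libraries were made with the SMARTer Stranded Total RNA-Seq Kit and EpiSC libraries after rRNA removal with a NEBNext kit. The quasi-likelihood test of edgeR 4.0.16 (R 4.3.3) was run on each comparison (TMM normalization, filterByExpr with minimum count 10 and minimum total count 15, robust quasi-likelihood fit, two-sided, Benjamini-Hochberg over all genes tested) on the libraries of the groups compared. The script was tested on simulated data. The SE is the size of the log2 fold change over the square root of F. RPKM used TMM library sizes and the union of exons of GENCODE vM21, in which 47224 of 47643 genes were found by identifier without version. Exact permutation tests used log2 CPM with a prior count of 2. P values measure the spread between single epiblasts, or between lines. Alternatives used DESeq2 1.42.0, voom of limma 3.58.1, RLE size factors, no filter, genes over 1% of counts left out, the replicate number as a block, depth groups and libraries left out. The fits without both WT 3 libraries, without the 5 E6.5 libraries highest in extraembryonic markers, and of the interaction without the deep E6.5 libraries were chosen after seeing the data. The named genes were the 10 members, *Stat3*, called and most abundant genes of the 3 pathway lists, and the 3 genes most like each member with mean CPM of at least 1. One gene of these lists is not reported here. Members and lists were chosen with earlier results of these data known. Figures were drawn with matplotlib 3.10.9.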

Additional observations from a re-analysis of the deposited data

Results flagged for a closer look

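Of 40 combinations of a member and a group of 4 to 10 libraries, 7 held a library farther from the rest than Dixon's 95% limit allows. Chance flags about 1 in 20 groups of independent, normally distributed values. The CPM values used here include zeros and the combinations share libraries, so that rate need not hold and 7 of 40 is not read as an excess. In 3 of the 7, all *Osmr*, every other library was at 0, so that any count would have been picked out and these say nothing against chance. E6.5 null 2 was the high library in 3 of them, with 61.1 CPM of *Lifr* (next 45.5), 34 CPM of *Cntfr* (next 15.3) and 5.08 CPM of *Il6ra* (next 1.86). E6.5 WT 3 had 28.6 CPM of *Cntfr* (next 14.3). The *Osmr* values were 0.313 CPM in E5.5 null 4, 0.0932 CPM in E6.5 null 1 and 0.178 CPM in E6.5 WT 9. The *Jak2* genotype difference at E7.5 minus that at E6.5 was -3.72 on the log2 scale by the interaction term (edgeR, adjusted p = 0.0199).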

How the results depend on the processing

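Of the 3 members that rose in WT from E6.5 to E7.5, all kept their call under every alternative run. With the replicate number as a block, the members called between WT E5.5 and E6.5 went from 2 to 0 (*Jak2* -3.14, adjusted p = 0.15, and *Jak1* -1.18, adjusted p = 0.277). Those between genotypes at E7.5 went from 1 to 0 (*Jak2* -1.18, adjusted p = 0.899). Over all genes these block fits called 101 of 20763 and 0 of 19680, down from 1070 and 231. With the block *Tyk2* turned to 0.25 between WT E5.5 and E6.5 and *Jak2* to 0.11 for E7.5 null against E6.5 WT. Correlations of same-numbered libraries ran from -0.271 to 0.349 over 500 genes, and no comparison had every pair over 0.1. Between genotypes, 5 of 8 pairs were over 0.1 at E6.5, 1 of 2 at E5.5 and 0 of 3 at E7.5. At E6.5 the libraries numbered 1, 2 and 3 of both genotypes were those over 40000000 counts. These values do not settle whether the numbers pair the libraries. DESeq2 called 1 member at E6.5, beside 15 of 17095 genes, and 3 between WT E5.5 and E6.5 (*Cntfr* added), beside 1617 of 20763 genes. It also called 1 for E7.5 null against E6.5 WT and 2 in the interaction. With voom there was 1 call (*Cntfr*) in null E7.5 against E6.5, 1 (*Cntfr*) for E7.5 null against E6.5 WT and 2 in the interaction. The interaction also gave 2 calls without E6.5 WT 3 and E7.5 WT 3 and without the E6.5 libraries over 40000000 counts, each time *Il6st* and *Jak2*. Leaving out both WT 3 libraries widens these values by construction. Leaving out 1 library gave 0 to 1 members at E7.5, 1 to 3 between WT E5.5 and E6.5 (3 without E6.5 WT 3, 1 without E5.5 WT 1), 0 to 1 for E7.5 null against E6.5 WT (1 without E6.5 WT 3) and 0 in the interaction, where each E7.5 null epiblast was left out. Over all genes, in the same order, these fits called 0 to 1105, 102 to 2029, 4 to 88 and 0 to 16. A count of members with no count over all genes beside it is not read as a result about the members. The cause of these shifts was not tested. Signs turned for *Jak1* at E6.5 (-0.0528 with voom and -0.0464 under 40000000 counts), *Jak2* for E7.5 null against E6.5 WT (0.26 with voom; -0.12 to 0.12 leaving out 1 library) and *Cntfr* at E7.5 (-0.00254 with DESeq2, -0.00247 with RLE, -0.0504 with voom; -0.0882 to 0.11 leaving out 1), none of them called. Leaving out 1 library also spanned 0 for *Jak2* in EpiSCs (-0.23 to 0.31), and in WT for *Il6st* (-0.78 to 0.14) and *Tyk2* (-0.64 to 0.0184) from E5.5 to E6.5 and for *Lifr* (-0.00925 to 0.13) from E6.5 to E7.5. Counts over all genes moved more: from 231 at E7.5 to between 0 and 1198, from 98 in the interaction to between 0 and 1499, from 1070 between WT E5.5 and E6.5 to between 101 and 2131, from 1518 between WT E6.5 and E7.5 to between 1363 and 2805, from 22 in EpiSCs to between 16 and 203, from 20 in null E7.5 against E6.5 to between 0 and 437, from 32 for E7.5 null against E6.5 WT to between 4 and 315, from 0 at E6.5 to at most 92, and from 0 at E5.5 to at most 14.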
